A study of Rattus norvegicus with 12 samples.

Results

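The lysosome and autophagy genes described here were 36 listed genes, chosen by name. A probe set counted as a member when the platform annotation gave it exactly 1 gene symbol that equalled a listed name. In this way 34 of the 36 genes were measured, by 36 probe sets, of 14324 genes named in all. Ctsz and Gaa were not analysed here. The measured members fell into 21 lysosomal genes (16 of the lumen and 5 of the membrane), 12 autophagy genes and Tfeb, a transcription factor that controls both kinds.

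RNA came from monolayers of cardiomyocytes, the beating muscle cells of the heart, isolated by enzymes from 2-day-old Sprague-Dawley rats. After 3 days in culture, 6 cultures received 50 µg/mL DEHP in 0.1% DMSO for 3 days, and 6 Control cultures received 0.1% DMSO alone for the same time. The compound, di(2-ethylhexyl) phthalate, softens medical plastics such as tubing and blood bags and can leach from them. All cells came from 1 litter, so the tests cover the spread between cultures and arrays and not between litters, and the labels' protocols mention no step that removed other heart cells.

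The lysosome is an acid compartment in which hydrolases break down proteins, glycans and lipids, and a proton pump, the V-ATPase, keeps it acid. Autophagy delivers cytoplasm and worn organelles to it: the ULK1 and Beclin complexes start a membrane, the ATG conjugation enzymes attach proteins of the Atg8 family (LC3 and GABARAP) to it, and receptors such as p62 tie the cargo to them. TFEB and its relatives bind a short sequence known as the CLEAR element before many lysosomal and some autophagy genes, and heart muscle relies on this turnover to clear damaged mitochondria and protein aggregates.

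The deposited values were linear ratios to the median of each probe set over the 12 arrays, and are given below as log2 ratios. A log2 ratio holds no expression level, so levels of different genes cannot be compared, and the labelled cell type cannot be checked against its markers. Because the scale is centred on each probe set's median, 2 groups that do not overlap lie on either side of 0, with their inner edges mirrored. Log2 folds are DEHP over Control with the SE from limma, with 6 arrays per group, and a gene "rose" or "fell" when its two-sided limma p, adjusted by Benjamini-Hochberg over all 27342 probe sets, was under 0.05. Over all 14324 genes, 24.6% passed, 14.4% higher and 10.2% lower, and the DEHP and Control arrays did not overlap in 16.9%. DEHP replicate 6 and Control replicate 5 spread more widely around the medians than the rest: the SD of their log2 ratios was 0.27 and 0.37, and that of the other arrays 0.15 to 0.19. Where leaving out either array moved a log2 fold of a member by over 1.5 times or changed its call, the value without it is given.

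Under DEHP most lysosomal members were higher, while most autophagy members did not pass the test. Of the 21 lysosomal members, 16 rose, 1 fell and 4 did not pass. That is 76.2% higher, where 14.4% of all genes were higher, with a median log2 fold of 0.32 against −0.018 over all genes. Of the 12 autophagy members, 3 rose, 0 fell and 9 did not pass. At an unadjusted limma p under 0.05, 0 of them were lower too. That is 25.0% higher, with a median log2 fold of 0.050. The median of the lysosomal members exceeded that of the autophagy members by 0.27 on the log2 scale. Averaged over the genes instead, the lysosomal members had a mean of 0.15 on the DEHP arrays and −0.16 on the Control arrays. The autophagy members had 0.054 and −0.094, so the contrast was smaller by means than by medians. This contrast has no test, since the members were chosen with results known. The groups did not overlap in 13 of the 21 lysosomal members and in 2 of the 12 autophagy members, where they did not overlap in 16.9% of all genes. Without DEHP replicate 6 and Control replicate 5 together, the counts of rises were again 16 and 3, where 15.7% of all genes rose. In that fit Neu1 lost its call (limma adjusted p = 0.0638) and Lipa gained one (0.0268). The difference of the medians was then 0.30.

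**Figure D1:**
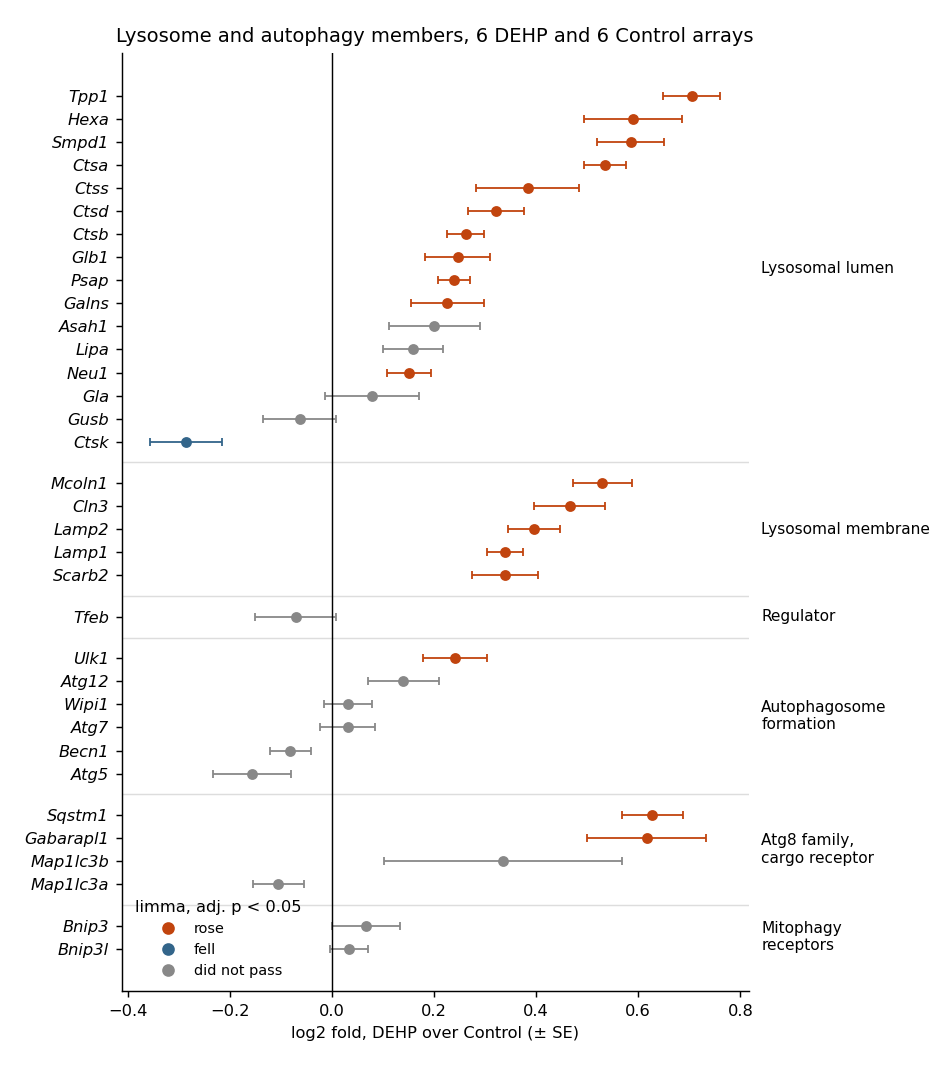
Log2 fold of each measured member, DEHP over Control, with its SE from limma over 6 DEHP and 6 Control arrays, ordered by size within each role. Colours give the call at an adjusted p under 0.05, with 19 members higher, Ctsk lower and 14 not passing.

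All 5 genes of the lysosomal membrane rose, with log2 folds from 0.34 to 0.53, where 14.4% of all genes rose. Mcoln1 encodes mucolipin, the channel that lets calcium out of the lysosome. Its lowest, median and highest log2 ratios were 0.13, 0.21 and 0.25 on the DEHP arrays, against −0.53, −0.31 and −0.13 on the Control arrays. It was 1.44-fold higher under DEHP (log2 fold 0.53 ± 0.058, adjusted p = 2.85e-05). Cln3, whose loss causes a childhood neuronal storage disease, read 0.060, 0.27 and 0.35 on the DEHP arrays, against −0.49, −0.20 and −0.060 on the Control arrays. Both groups of Cln3 had a low array, at 0.060 for DEHP replicate 5 and −0.49 for Control replicate 5, yet the groups stayed apart (log2 fold 0.47 ± 0.070, adjusted p = 0.000372).

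The main glycoproteins of the lysosomal membrane are encoded by Lamp1 and Lamp2, the second of which is also needed for fusion of autophagosomes with lysosomes. Lamp1 had values of 0.11, 0.15 and 0.16 on the DEHP arrays, against −0.28, −0.21 and −0.11 on the Control arrays. Its 6 DEHP values lay within a narrow band above every Control value (log2 fold 0.34 ± 0.036, adjusted p = 2.15e-05). Lamp2 ranged wider, with 0.074, 0.21 and 0.23 on the DEHP arrays, against −0.38, −0.21 and −0.074 on the Control arrays (log2 fold 0.40 ± 0.051, adjusted p = 0.000112). Scarb2, the receptor that carries glucocerebrosidase to the lysosome, read 0.062, 0.18 and 0.32 on the DEHP arrays, against −0.43, −0.11 and −0.062 on the Control arrays. The groups again did not overlap (log2 fold 0.34 ± 0.065, adjusted p = 0.0024), and without Control replicate 5 its log2 fold was 0.28.

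Promoter sequences from RefSeq (build GRCr8, 250 bases before to 50 after the annotated start) were at hand for 17 of the 21 lysosomal members, 9 of the 12 autophagy members and Tfeb. They were searched for CACGTG and for TCACGTGA, the core of the CLEAR element, which contains the shorter motif. Both read the same on either strand. TCACGTGA stood in 4 of the 17 lysosomal promoters (23.5%) and in 0 of the 9 autophagy promoters. It was held by 149 of the 11823 measured genes with a promoter, and by 0.896% of all 27457 genes with one. At such a rate 9 promoters are too few to show a lack, and the counts were not tested. The 4 lysosomal genes were Lamp1, Cln3, Mcoln1 and Ctsd, and their promoter stretches are shown because all 4 rose. Capitals mark TCACGTGA where it is complete and otherwise CACGTG, and each stretch runs 5′ to 3′ on the gene's strand.
Lamp1: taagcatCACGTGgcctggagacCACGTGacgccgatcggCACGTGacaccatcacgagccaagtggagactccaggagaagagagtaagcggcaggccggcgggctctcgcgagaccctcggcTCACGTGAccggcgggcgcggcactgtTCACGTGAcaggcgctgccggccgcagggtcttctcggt
Cln3: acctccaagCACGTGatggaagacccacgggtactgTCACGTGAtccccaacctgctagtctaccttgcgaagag
Mcoln1: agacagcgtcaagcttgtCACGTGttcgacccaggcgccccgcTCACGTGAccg
Ctsd: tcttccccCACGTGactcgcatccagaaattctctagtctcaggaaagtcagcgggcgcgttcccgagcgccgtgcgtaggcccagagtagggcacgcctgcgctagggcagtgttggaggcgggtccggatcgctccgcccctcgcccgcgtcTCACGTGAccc
The Lamp1 stretch (chr16:83075064-83075253, minus strand) holds 5 copies of CACGTG, of which 2 are complete TCACGTGA. Those of Cln3 (chr1:190597930-190598004, minus strand), Mcoln1 (chr12:6358218-6358271, plus strand) and Ctsd (chr1:206968822-206968986, minus strand) each hold 2 copies, 1 of them complete. The complete copy of Mcoln1 begins at base 4 after the start, and those of the other 3 genes lie before it.

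CACGTG without the full core stood in 1 further lysosomal promoter, that of Glb1, and in 2 autophagy promoters, those of Atg5 and Bnip3. Short stretches of these are shown because Glb1 rose and neither Atg5 nor Bnip3 passed.
Glb1: gctccggagtCACGTGgcctgcagag
Atg5: ggggcgctggcCACGTGggcgggtga
Bnip3: cgcacgcgccgCACGTGccacacgcg
They lie at chr8:122963608-122963633 (plus strand), chr20:49380805-49380830 (plus strand) and chr1:203155047-203155072 (minus strand). The shorter motif was present for 7.08% of all genes with a promoter, and for 952 of the 11823 measured ones. Rises were not limited to promoters with a motif: of the 12 lysosomal members whose promoter held no CACGTG, 8 rose, 1 fell and 3 did not pass. Among all 149 measured genes with TCACGTGA, 47 rose (31.5%), 9 fell and 93 did not pass, against 14.4% rising among the 11823 measured genes with a promoter. Among the companion genes of the same pathways, 3 of 12 with TCACGTGA in the promoter rose (25.0%), against 51 of 101 without it (50.5%). The 12 are few, 4 of them are genes of enzyme sorting, and neither comparison by motif was tested. Base composition differs between promoters and was not compared, and a match does not show that a factor binds.

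Of the 16 measured lumen genes, 11 rose, 1 fell and 4 did not pass, where 14.4% of all genes rose and 10.2% fell. Among the peptidases Tpp1, which trims tripeptides from protein ends, showed the largest log2 fold of the 34 members. Its values were 0.25, 0.28 and 0.35 on the DEHP arrays, against −0.64, −0.39 and −0.25 on the Control arrays. Every DEHP array lay above every Control array (1.63-fold higher, log2 fold 0.70 ± 0.056, adjusted p = 1.97e-06). Ctsa encodes protective protein, a carboxypeptidase that stabilizes the sialidase and beta-galactosidase of the lysosome. It read 0.17, 0.30 and 0.33 on the DEHP arrays, against −0.37, −0.26 and −0.17 on the Control arrays, a clear separation with little spread (log2 fold 0.54 ± 0.042, adjusted p = 1.66e-06).

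The general proteases cathepsin D and cathepsin B rose by less. Ctsd had 0.023, 0.29 and 0.33 on the DEHP arrays, against −0.21, −0.055 and −0.023 on the Control arrays. DEHP replicate 6 was its lowest DEHP array by a wide gap and still above all Control arrays (log2 fold 0.32 ± 0.054, adjusted p = 0.000961, and 0.37 without that array). Ctsb read 0.078, 0.11 and 0.13 on the DEHP arrays, against −0.24, −0.13 and −0.078 on the Control arrays (log2 fold 0.26 ± 0.036, adjusted p = 0.000189).

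Cathepsins S and K went opposite ways. Ctss, a protease of antigen-presenting cells that cleaves the invariant chain, read −0.030, 0.20 and 0.42 on the DEHP arrays, against −0.50, −0.061 and 0.0043 on the Control arrays. It rose (log2 fold 0.38 ± 0.10, adjusted p = 0.0173) although the groups overlapped, since DEHP replicate 6 lay below the top Control array. Ctsk encodes the collagen-cleaving cathepsin best known from osteoclasts, and it was the 1 member that fell. Its values were −0.55, −0.17 and −0.041 on the DEHP arrays, against 0.041, 0.086 and 0.12 on the Control arrays (log2 fold −0.29 ± 0.071, adjusted p = 0.0123). The lowest value belonged to DEHP replicate 6, and without that array the log2 fold was −0.22, with an adjusted p of 0.00104.

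Ctss is typical of macrophages, and fibroblasts are a known source of Ctsk. In the same arrays 7 of 11 fibroblast markers fell (63.6%) and 3 rose (27.3%). Their list means were −0.48 to −0.091 on the DEHP arrays, against −0.0054 to 0.21 on the Control arrays. Of 16 macrophage and leukocyte markers, 2 rose (12.5%), 3 fell (18.8%) and 11 did not pass. Over all genes 14.4% rose and 10.2% fell. The means of these 16 markers overlapped, at −0.080 to 0.033 on the DEHP arrays, against −0.076 to 0.14 on the Control arrays. Leaving out 1 array at a time, the count of macrophage and leukocyte markers that fell ran from 2 to 5, and the count that rose from 1 to 2. The 5 came without DEHP replicate 6, where 9.77% of all genes fell. Without DEHP replicate 6 and Control replicate 5 together 6 fell, where 12.7% of all genes fell. The part of these cell types in the changes of Ctss and Ctsk was not tested. In cultures such as these, fewer cells of a type and less RNA per cell cannot be told apart.

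The enzymes that strip sugars from glycans, together with 1 sulfatase, rose in 4 of 6 cases, where 14.4% of all genes rose. Hexa encodes the alpha subunit of beta-hexosaminidase, which degrades gangliosides. It had 0.068, 0.43 and 0.54 on the DEHP arrays, against −0.59, −0.14 and −0.068 on the Control arrays. Its lowest DEHP and lowest Control values came from DEHP replicate 6 and Control replicate 5, and the groups did not overlap (log2 fold 0.59 ± 0.096, adjusted p = 0.000731). Beta-galactosidase, from Glb1, read −0.0069, 0.13 and 0.22 on the DEHP arrays, against −0.37, −0.084 and 0.0069 on the Control arrays, with 5 of 6 DEHP arrays above all Control arrays (log2 fold 0.25 ± 0.064, adjusted p = 0.0157).

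Galns and Neu1 passed by a small margin. Galns, a sulfatase of keratan sulfate breakdown, had −0.12, 0.16 and 0.20 on the DEHP arrays, against −0.36, −0.064 and 0.0065 on the Control arrays (log2 fold 0.23 ± 0.072, adjusted p = 0.0447). DEHP replicate 6 was far below the other DEHP arrays, within the Control range. Leaving out 1 array at a time gave Galns adjusted p values from 0.00898 to 0.098, and 9 of the 12 were above the threshold. It was 0.00898 without DEHP replicate 6 and 0.0538 without Control replicate 5. Neu1, the lysosomal sialidase, read −0.0044, 0.036 and 0.14 on the DEHP arrays, against −0.20, −0.11 and 0.046 on the Control arrays (log2 fold 0.15 ± 0.043, adjusted p = 0.0287). Without 1 array its adjusted p ran from 0.00661 to 0.067, above the threshold in 7 of 12 cases. It was 0.0599 without DEHP replicate 6 and 0.0638 without DEHP replicate 6 and Control replicate 5 together.

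The other 2 enzymes did not pass. Gla, alpha-galactosidase A, had −0.15, 0.0090 and 0.082 on the DEHP arrays, against −0.54, 0 and 0.045 on the Control arrays (log2 fold 0.079 ± 0.092, adjusted p = 0.613). Its Control replicate 5 stood far below the rest, and without that array the log2 fold was −0.013. Gusb, beta-glucuronidase, read −0.36, 0 and 0.082 on the DEHP arrays, against −0.071, 0.0052 and 0.14 on the Control arrays (log2 fold −0.063 ± 0.072, adjusted p = 0.608). DEHP replicate 6 alone lay below the Control range, and without it the log2 fold was −0.00051.

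Of 4 genes of lysosomal lipid breakdown, 2 rose and 2 did not pass, where 14.4% of all genes rose. Smpd1, acid sphingomyelinase, turns sphingomyelin into ceramide. It had 0.20, 0.26 and 0.30 on the DEHP arrays, against −0.64, −0.28 and −0.20 on the Control arrays. The 6 DEHP values lay close together, well above the Control values (log2 fold 0.59 ± 0.065, adjusted p = 3.28e-05), and without Control replicate 5, its lowest Control array, the log2 fold was 0.52. Psap, the precursor of the saposins that present lipids to the hydrolases, read 0.087, 0.11 and 0.12 on the DEHP arrays, against −0.22, −0.12 and −0.087 on the Control arrays (log2 fold 0.24 ± 0.031, adjusted p = 0.000116). That is a small change with the smallest SE of the 34 members.

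Asah1, acid ceramidase, had −0.093, 0.089 and 0.20 on the DEHP arrays, against −0.53, −0.076 and 0.061 on the Control arrays (log2 fold 0.20 ± 0.089, adjusted p = 0.16). Its lowest value was Control replicate 5, and without that array the log2 fold was 0.12. Lipa, the acid lipase that frees cholesterol and fatty acids from lipoprotein lipids, read −0.095, 0.10 and 0.24 on the DEHP arrays, against −0.16, −0.019 and 0.0012 on the Control arrays (log2 fold 0.16 ± 0.060, adjusted p = 0.0918). In Lipa 5 of 6 DEHP arrays lay above all Control arrays and DEHP replicate 6 lay among them. Without that array its adjusted p was 0.0209, and without Control replicate 5 as well 0.0268.

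**Figure D2:**
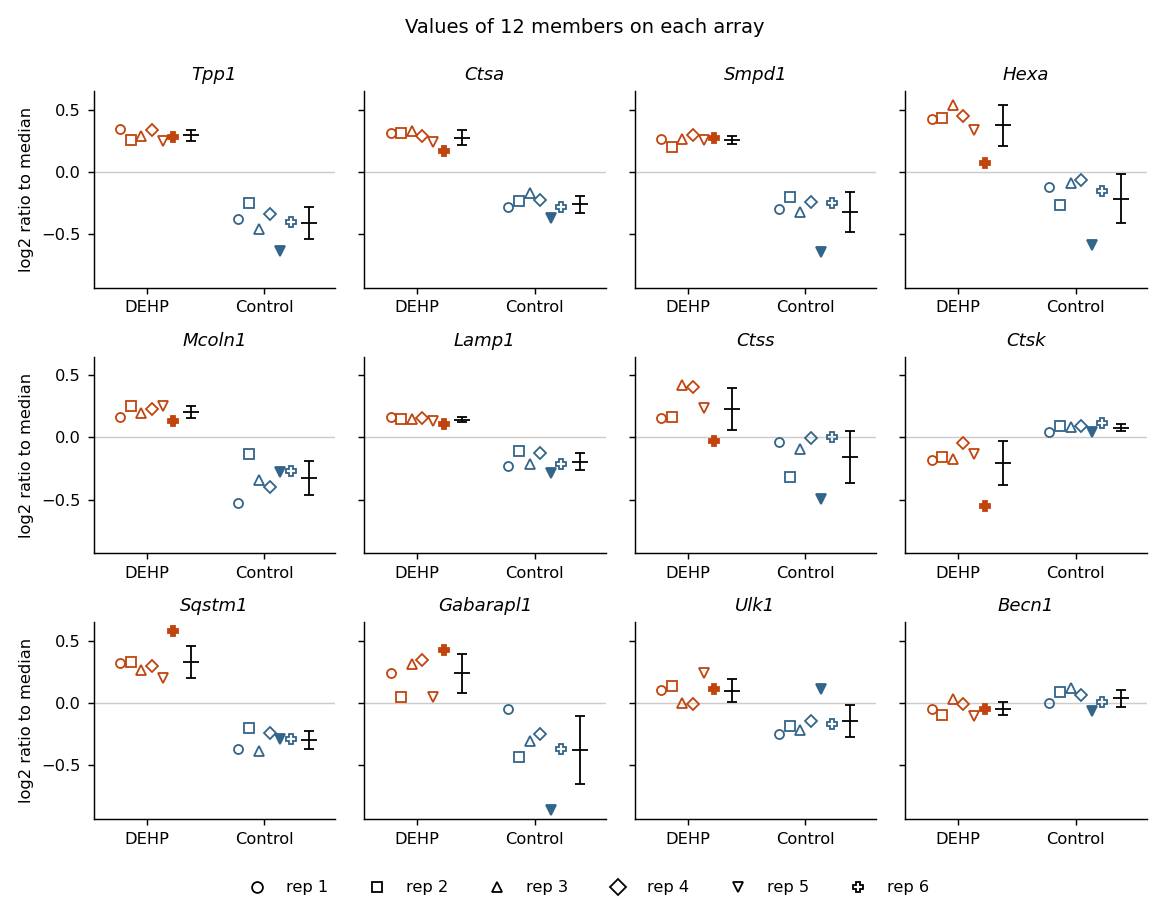
Log2 ratio to the probe set's median over 12 arrays for 12 members, DEHP on the left and Control on the right of each panel. Each symbol is 1 array, filled for DEHP replicate 6 and Control replicate 5, and the bar at the side is the mean ± SD (n = 6). In Tpp1, Ctsa, Smpd1, Hexa, Mcoln1, Lamp1, Sqstm1 and Gabarapl1 all DEHP arrays lie above all Control arrays, in Ctsk all lie below, and in Ctss, Ulk1 and Becn1 the groups overlap.

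Tfeb itself did not pass. Its values were −0.28, −0.054 and 0.13 on the DEHP arrays, against −0.13, 0.0054 and 0.22 on the Control arrays, so that 3 DEHP arrays lay within the Control range and 3 below it (log2 fold −0.071 ± 0.080, adjusted p = 0.601). Its log2 fold was −0.027 without DEHP replicate 6 and −0.028 without Control replicate 5. Its sign turned when DEHP replicate 6 and Control replicate 5 were left out (log2 fold 0.015). The array measures RNA, and TFEB is known to be controlled mainly by phosphorylation and its place in the cell. Among 22 measured genes of the TFEB family and of its control by mTORC1 and AMPK, 10 rose (45.5%), 2 fell (9.09%) and 10 did not pass. Over all genes 14.4% rose and 10.2% fell. Mitf, a relative of Tfeb that binds the same element, rose (log2 fold 0.46 ± 0.051), while Tfec, a further relative, fell (−0.67 ± 0.15). The largest log2 fold of this list was in Rragd, the Rag GTPase that brings mTORC1 to the lysosome, with 0.42, 0.57 and 0.66 on the DEHP arrays, against −0.65, −0.56 and −0.42 on the Control arrays (2.16-fold higher, log2 fold 1.11 ± 0.053, adjusted p = 5.00e-08). Flcn, folliculin, which acts on that GTPase, rose too (0.85 ± 0.068), as did Prkab1, a subunit of AMPK (0.65 ± 0.062). Rraga, another Rag GTPase, fell (−0.13 ± 0.036, adjusted p = 0.0242).

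Of 6 genes of autophagosome formation, 1 rose (16.7%, against 14.4% of all genes), 0 fell and 5 did not pass. The 1 that rose was Ulk1, the kinase that starts autophagy. It had −0.0048, 0.11 and 0.24 on the DEHP arrays, against −0.25, −0.18 and 0.11 on the Control arrays. Control replicate 5 was the highest Control array by far, and the groups overlapped (log2 fold 0.24 ± 0.063, adjusted p = 0.0175). Without that array the log2 fold was 0.29. Becn1, Beclin, the scaffold of the lipid kinase complex that marks the new membrane, read −0.11, −0.045 and 0.036 on the DEHP arrays, against −0.061, 0.038 and 0.12 on the Control arrays (log2 fold −0.081 ± 0.040, adjusted p = 0.21).

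The conjugation genes did not pass. Atg5 had −0.39, −0.073 and 0.023 on the DEHP arrays, against −0.20, 0.079 and 0.18 on the Control arrays (log2 fold −0.16 ± 0.076, adjusted p = 0.203), where DEHP replicate 5 was lowest. Without Control replicate 5 the log2 fold of Atg5 was −0.21 and the adjusted p 0.0445. Atg12, which is joined to the Atg5 protein, read −0.059, 0.032 and 0.11 on the DEHP arrays, against −0.44, −0.046 and 0.0025 on the Control arrays (log2 fold 0.14 ± 0.070, adjusted p = 0.216). Without Control replicate 5, its lowest array, the log2 fold of Atg12 was 0.073. Atg7, the enzyme that activates both conjugation systems, had −0.067, −0.0029 and 0.13 on the DEHP arrays, against −0.19, 0.00098 and 0.11 on the Control arrays (log2 fold 0.031 ± 0.053, adjusted p = 0.742). Wipi1, which reads the lipid mark on the growing membrane, read −0.087, 0.012 and 0.046 on the DEHP arrays, against −0.19, −0.023 and 0.091 on the Control arrays (log2 fold 0.032 ± 0.047, adjusted p = 0.702). In Atg7 and Wipi1 the middle values of both groups lay near 0. Without Control replicate 5 their log2 folds were −0.0037 and 0.0012.

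The cargo receptor and 1 of 3 Atg8 genes were the other 2 autophagy members that rose. Sqstm1 encodes p62, which binds ubiquitin-tagged cargo and LC3. It read 0.20, 0.31 and 0.58 on the DEHP arrays, against −0.39, −0.29 and −0.20 on the Control arrays. All DEHP arrays were higher than all Control arrays, with DEHP replicate 6 well above the rest (1.55-fold higher, log2 fold 0.63 ± 0.060, adjusted p = 8.20e-06), and without that array the log2 fold was 0.58. Gabarapl1, an Atg8 protein of the GABARAP branch, had 0.048, 0.28 and 0.43 on the DEHP arrays, against −0.86, −0.34 and −0.048 on the Control arrays. Its groups were wide but did not overlap (1.53-fold higher, log2 fold 0.62 ± 0.12, adjusted p = 0.00222).

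The LC3 genes gave a less even picture. Map1lc3a, LC3A, had −0.071, −0.026 and 0.055 on the DEHP arrays, against −0.065, 0.13 and 0.20 on the Control arrays (log2 fold −0.10 ± 0.049, adjusted p = 0.188). Without Control replicate 5 its log2 fold was −0.14 and the adjusted p 0.0441. Map1lc3b, LC3B, was measured by 2 probe sets. The lower-numbered one, used for the counts, had −0.20, 0.096 and 0.25 on the DEHP arrays, against −1.47, −0.065 and 0.13 on the Control arrays (log2 fold 0.34 ± 0.23, adjusted p = 0.391). Its lowest value was Control replicate 5, far from the other arrays, and without it the log2 fold was 0.093. The other probe set read 0.029, 0.083 and 0.19 on the DEHP arrays, against −0.20, −0.086 and −0.029 on the Control arrays, without overlap of the groups (log2 fold 0.20 ± 0.041, adjusted p = 0.00385). The 2 probe sets of Map1lc3b thus differ in the call and not in the direction, and with their mean the adjusted p was 0.148.

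The mitophagy receptors Bnip3 and Bnip3l, outer mitochondrial membrane proteins that tie mitochondria to Atg8 proteins and are known to respond to low oxygen, did not pass. Bnip3 had −0.027, 0.013 and 0.14 on the DEHP arrays, against −0.17, −0.076 and 0.24 on the Control arrays for the probe set used (log2 fold 0.067 ± 0.066, adjusted p = 0.553) and a log2 fold of 0.072 ± 0.070 for the other. Bnip3l read −0.051, 0.0063 and 0.060 on the DEHP arrays, against −0.13, −0.023 and 0.055 on the Control arrays (log2 fold 0.033 ± 0.037, adjusted p = 0.595). All 6 DEHP arrays of Bnip3 and 5 of 6 of Bnip3l lay within the Control range. Without Control replicate 5 the log2 fold of Bnip3 was 0.043 and that of Bnip3l 0.012, and without DEHP replicate 6 that of Bnip3 was 0.044.

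Companion lists of the same pathways were counted as well. They too were chosen with earlier results of these data known, so their counts are not independent support for the pattern of the members. Together 7 lists named 175 further genes, of which 136 were measured. Of these 66 rose (48.5%), 5 fell (3.68%) and 65 did not pass, where 14.4% of all genes rose and 10.2% fell. The 5 that fell, Gnptg, Vamp8, Tax1bp1, Tfec and Rraga, were named after their values were seen. Of 20 V-ATPase subunits, 12 rose (60.0%), 0 fell and 8 did not pass, with a median log2 fold of 0.28. Atp6ap1, an accessory subunit of the pump, had 0.17, 0.21 and 0.25 on the DEHP arrays, against −0.32, −0.20 and −0.17 on the Control arrays (log2 fold 0.43 ± 0.036, adjusted p = 2.46e-06). Atp6v0a1 (0.47 ± 0.052) and Atp6v0b (0.29 ± 0.038) of the membrane sector rose as well, as did Atp6v1b2 (0.36 ± 0.045) of the catalytic sector.

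Among 25 other lumen genes 15 rose (60.0%), 0 fell and 10 did not pass, where 14.4% of all genes rose and 10.2% fell. The median log2 fold of the 25 was 0.34. Ctsc, the cathepsin that activates granule proteases, showed the largest log2 fold of the members and companion genes. It had 0.53, 0.81 and 0.88 on the DEHP arrays, against −0.89, −0.70 and −0.53 on the Control arrays (2.72-fold higher, log2 fold 1.44 ± 0.071, adjusted p = 5.46e-08). The peptidase genes Dpp7 (log2 fold 0.96 ± 0.073) and Lgmn (0.71 ± 0.051, legumain) and the progranulin gene Grn (0.69 ± 0.056) rose too. Of 22 other membrane genes 13 rose (59.1%), 0 fell and 9 did not pass. They included Clcn7 (0.59 ± 0.058), the chloride-proton exchanger, Npc1 (0.49 ± 0.059), the cholesterol exporter, Slc17a5 (0.53 ± 0.073), the sialic acid exporter, and the tetraspanin Cd63 (0.35 ± 0.036).

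Of 13 genes that sort enzymes to the lysosome, 4 rose (30.8%), 1 fell (7.69%) and 8 did not pass. That compares with 14.4% higher and 10.2% lower over all genes. The rises were those of the Golgi adaptors Gga3 (log2 fold 0.33 ± 0.055), Gga2 (0.33 ± 0.063) and Gga1 (0.23 ± 0.052) and of Vps26a (0.40 ± 0.086), a part of the retromer. Gnptg, a subunit of the enzyme that makes the mannose phosphate tag, fell (−0.19 ± 0.061, adjusted p = 0.0485). Its call was lost with robust eBayes, after subtracting array medians, with a replicate block (adjusted p = 0.0561), in 8 of 12 fits that left out 1 array, and without DEHP replicate 6 and Control replicate 5 together (adjusted p = 0.107).

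Of 24 other genes of autophagosome formation and fusion, 6 rose, 1 fell and 17 did not pass. That is 25.0% higher, as among the 12 autophagy members, and 4.17% lower, where 14.4% of all genes rose and 10.2% fell. Wdr45 (0.33 ± 0.051), Plekhm1 (0.34 ± 0.052), an adaptor of lysosomal fusion, the lipid scramblase gene Atg9a (0.21 ± 0.044) and the Atg8 gene Gabarap (0.17 ± 0.038) rose. Vamp8, a fusion SNARE, fell (−0.27 ± 0.087, adjusted p = 0.0452), a call lost after subtracting array medians and on leaving out any 1 array other than DEHP replicate 6 or Control replicate 5. The other cargo and mitophagy receptors numbered 10 measured genes, with 6 higher, 1 lower and 3 not passing. Optn, optineurin, a receptor of mitophagy, had 0.27, 0.37 and 0.71 on the DEHP arrays, against −0.82, −0.57 and −0.27 on the Control arrays (1.99-fold higher, log2 fold 0.996 ± 0.092, adjusted p = 6.57e-06). Pink1, the kinase that marks damaged mitochondria, rose (0.60 ± 0.063), as did the receptors Nbr1 (0.47 ± 0.066) and Tex264 (0.32 ± 0.037). Tax1bp1, a further cargo receptor, fell (−0.34 ± 0.065, adjusted p = 0.00218).

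**Figure D3:**
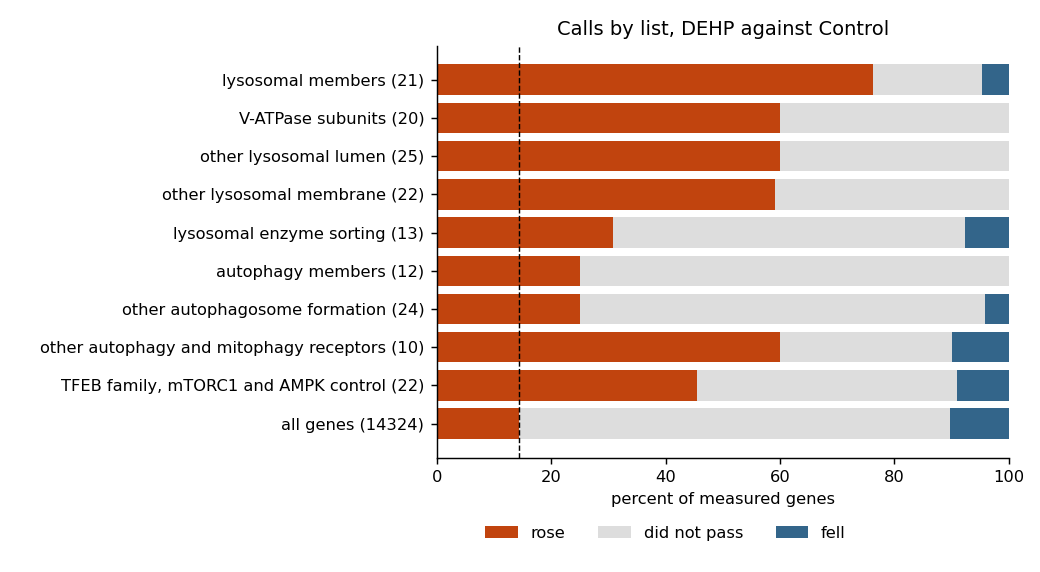
Percent of the measured genes of each list that rose, did not pass or fell under DEHP, with the number measured in brackets and a dashed line at the 14.4% of all genes that rose. Lysosomal members rose in 76.2% of cases. V-ATPase subunits, other lumen genes and other autophagy and mitophagy receptors rose in 60.0% each, and other membrane genes in 59.1%. The TFEB family and control list rose in 45.5%, enzyme sorting in 30.8%, and autophagy members and other autophagosome genes in 25.0% each.

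Averaged over the 21 lysosomal members, the log2 ratio was 0.041 to 0.20 on the DEHP arrays, against −0.33 to −0.10 on the Control arrays. The lowest DEHP array was replicate 6 and the lowest Control array replicate 5. Those 2 arrays held the lowest value of their group in 13 of the 21 lysosomal members each. The 20 V-ATPase subunits averaged 0.091 to 0.14 on the DEHP arrays, against −0.20 to −0.060 on the Control arrays, again apart. For the 12 autophagy members the mean was −0.029 to 0.10 on the DEHP arrays, against −0.33 to 0.0034 on the Control arrays. The ranges overlapped only because Control replicate 1 lay above DEHP replicate 5. Control replicate 5 was the lowest Control array in 9 of the 12. The lowest value of 6 of the 12 autophagy members among DEHP arrays was in replicate 5.

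**Figure D4:**
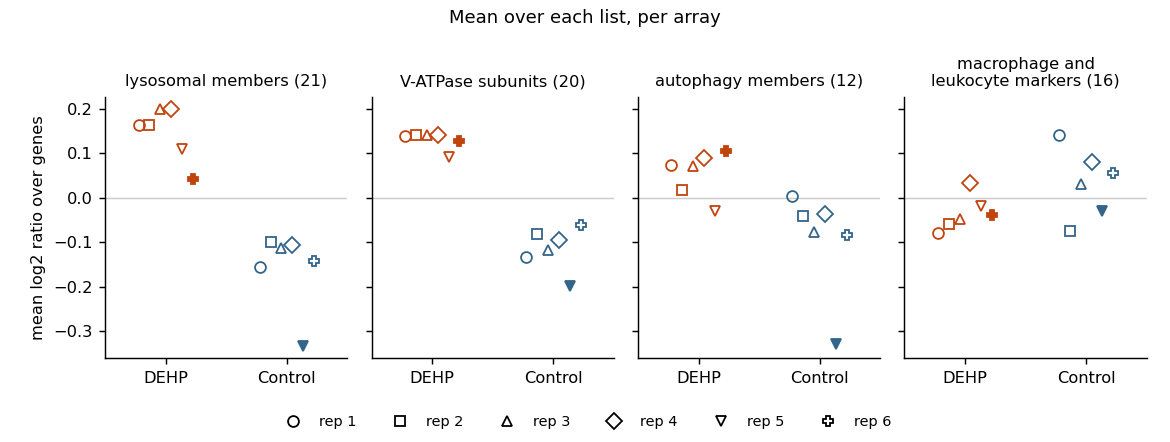
Mean log2 ratio over the genes of a list on each array, DEHP on the left and Control on the right, with replicate numbers by symbol and DEHP replicate 6 and Control replicate 5 filled. The lysosomal members and V-ATPase subunits separate the groups, while the autophagy members and the macrophage and leukocyte markers do not. The overlap of the autophagy members comes only from Control replicate 1 (0.0034) lying above DEHP replicate 5 (−0.029).

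Markers of other cells moved in the same arrays, where 14.4% of all genes rose and 10.2% fell. All 5 smooth muscle markers fell, with means of −1.52 to −0.77 on the DEHP arrays, against 0.79 to 0.97 on the Control arrays. Of 5 endothelial markers 3 rose and 2 did not pass, with overlapping means of −0.17 to 0.57 on the DEHP arrays, against −0.34 to 0.018 on the Control arrays. Cardiomyocyte markers went both ways, with 4 of 12 higher, 3 lower and 5 not passing. The log2 folds were 1.67, 1.13, 1.05 and 0.21 for the 4 rises, and −0.41, −0.27 and −0.22 for the 3 falls. Means of the 12 markers overlapped, at −0.17 to 0.31 on the DEHP arrays, against −0.18 to 0.0040 on the Control arrays. The part of cell composition in the rise of the lysosomal members was not tested.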

How the data were processed

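RNA of 12 cultures was hybridised to Affymetrix rat gene arrays, 1 array a culture, 6 DEHP and 6 Control by the labels. RMA was used, per the submitters' processing notes, whose version is not given in the sources used here. The values deposited by the authors were linear ratios: each probe set's log2 median over the 12 arrays lay within 1e-04 of 0, so no brightness is held, no filter on dim probe sets was possible, and the number of arrays limits the precision. Ratios were turned into log2 values and fitted with limma 3.58.1 in R 4.3.3 (lmFit and eBayes, 2 groups, no covariate), with Benjamini-Hochberg adjustment over all 27342 probe sets. Of these 15097 had 1 gene symbol in the platform annotation, 323 several and 11922 none; the lowest-numbered probe set with 1 symbol stood for a gene. Entrez IDs of 15067 were in the RefSeq GRCr8 table, and 0 symbols changed. The fit was tested on simulated data. All members are named, and of each companion list the 4 genes with the smallest p. The members and lists were chosen with earlier results of these data known. Alternatives were other normalizations, array weights, robust eBayes, a replicate block, left-out arrays, all probe sets of a gene averaged, and stricter thresholds.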

Additional observations from a re-analysis of the deposited data

Results flagged for a closer look

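In each group of 6 arrays, the gap of the highest or lowest array to its neighbour was set against the group's range in Dixon's test. Of 134 groups tested (67 named genes, DEHP and Control) 23 passed its critical value, where chance gives about 1 in 20. DEHP replicate 6 was the array in 8 of them and Control replicate 5 in 11. All values are log2 ratios.

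DEHP replicate 6 stood below the other DEHP arrays in Ctsd (0.023), Ctsk (−0.55), Gusb (−0.36), Galns (−0.12), Dpp7 (0.32), Grn (0.20) and Prkab1 (0.19), and above them in Sqstm1 (0.58). DEHP replicate 5 was low in Cln3 (0.060) and Atg5 (−0.39).

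Control replicate 5 stood below the other Control arrays in Gla (−0.54), Asah1 (−0.53), Smpd1 (−0.64), Cln3 (−0.49), Scarb2 (−0.43), Atg12 (−0.44), Map1lc3b (−1.47), Cd63 (−0.23), Slc17a5 (−0.58) and Gga2 (−0.36), and above them in Ulk1 (0.11). Control replicate 1 was low in Ctsd (−0.21), and Control replicate 6 was high in Pink1 (−0.10).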

How the results depend on the processing

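Of the 20 members called, 18 kept call and direction under all 20 alternatives other than the 2 stricter thresholds. The exceptions were Galns and Neu1. Leaving out 1 array at a time gave 18 to 21 members called, 14 to 16 lysosomal members higher, 1 lower in each case, 3 autophagy members higher in each case, 0 to 2 lower, and a difference of the medians from 0.20 to 0.31. In these fits 11.9% to 14.9% of all genes rose and 8.88% to 12.3% fell. The 2 lower autophagy members appeared without Control replicate 5 and were Atg5 and Map1lc3a. Over the same fits the log2 fold of Gla ran from −0.013 to 0.11 and that of Atg7 from −0.0037 to 0.056, both lowest without that array. Without DEHP replicate 6 and Control replicate 5 together, the log2 folds of Gla (−0.011), Tfeb (0.015), Atg7 (−0.014) and Wipi1 (−0.0019) changed sign, and so did that of Atg7 with array weights (−0.0011). None of these passed in any of those fits. Array weights called 1 autophagy member lower, Map1lc3a, 18 lysosomal members higher and 6 macrophage and leukocyte markers lower. In that fit 35.2% of all genes were called, 19.9% higher and 15.2% lower. The cause was not tested.

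With a replicate block, 23 members were called, with 18 lysosomal members higher and 1 lower, and 3 autophagy members higher and 1 lower, Atg5. The share of all genes called was 30.4% (17.6% higher and 12.8% lower), against 24.6% without the block. Asah1 and Lipa were the added lysosomal calls. The numbers were not taken to pair the samples, since not every correlation of same-numbered samples was over 0.1: all 6 were positive, from 0.072 to 0.77, and 2 of 6 DEHP arrays correlated best with their own number. Requiring a fold above 1.2 (limma treat) left 5 members, with 4 lysosomal members higher and 0 lower and 1 autophagy member higher, where 6.07% of all genes were called and 2.97% were higher. An adjusted p under 0.01 left 14, with 12 lysosomal members higher and 0 lower, and 2 autophagy members higher, where 16.3% of all genes were called and 9.11% were higher. Both are stricter by construction. Of 33 companion genes named, Gnptg, Rraga and Vamp8 lost the call under at least 1 of the other alternatives.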
